A study of Caenorhabditis elegans with 13 samples.

Results

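The 7 genes described here, *lin-14*, *lin-28*, *lin-41*, *lin-42*, *lin-46*, *hbl-1* and *daf-12*, belong to the heterochronic pathway of *C. elegans*, which tells larval cells which stage of development they are in. They were taken from the expression table by gene name, by a rule that uses no expression value, although earlier results of these data were known when the genes were chosen. They are 7 of its 46170 genes. All 7 were among the 16438 genes that averaged at least 1 FPKM (fragments scaled to transcript length and to the number of mapped reads) over the 4 groups. mRNA was sequenced from whole first-stage (L1) hermaphrodite larvae that had hatched overnight and then fed for 3 hours. The study asked how loss of heterochromatin anchoring at the nuclear lamina affects gene expression. The control was the wild type N2 strain on empty-vector RNAi (3 libraries). The *dpy-27(RNAi)* group was N2 with the DPY-27 subunit of the dosage compensation complex targeted by RNAi (4 libraries), under mild conditions that the study describes as a partial depletion. The *cec-4* group was strain RB2301, *cec-4(ok3124)* IV, which lacks a chromodomain protein that anchors H3K9-methylated chromatin to the lamina, on vector RNAi (3 libraries). The *met-2 set-25* group was strain EKM99, which carries *met-2(n4256)* together with *set-25(n5021)* III and lacks the H3K9 methyltransferases MET-2 and SET-25, on vector RNAi (3 libraries).

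Each larval stage of the worm has its own pattern of cell divisions, seen most clearly in the seam cells of the epidermis, and the heterochronic genes set the order of these patterns. Proteins such as LIN-14 and LIN-28 are abundant at hatching and hold cells in early programs until microRNAs of the *lin-4* and *let-7* families switch them off. In well-fed larvae this decline takes place as the first stages pass, so young L1 animals are the point at which the early-acting genes are normally at their peak. Mutations of the pathway can make cells skip or repeat a stage.

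The table holds only the mean over the libraries of each group, as computed by the authors. With no value per library, no SD or test could be computed here, and each ratio below is a description of group means. The adjusted p-values of the authors' own comparisons were not used. A gene is counted as higher or lower when 2 means differ by at least 1.5-fold after adding 0.1 FPKM to each, and the count is set beside the share of all 16438 genes past the same fold. The control group is the same in all 3 comparisons with it. The control mean of a gene therefore enters each of its ratios. The depth of the libraries is not given in the table. Its values for each group summed to between 1071170 and 1226250 FPKM. In whole larvae, fewer cells of a type and less RNA per cell cannot be told apart.

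The targeted genes and the markers were looked at first. *cec-4* stood at 18.2 FPKM in the control and 7.02 FPKM in the *cec-4* mutant, and *set-25* at 8.93 FPKM in the control and 4.15 FPKM in *met-2 set-25*. *met-2* differed less, with 17.6 FPKM in the control and 13.7 FPKM in *met-2 set-25*. The *dpy-27* mRNA was 32.3 FPKM in the control and 31.6 FPKM in the group labelled *dpy-27(RNAi)*, so the mRNA level does not check that label. The study examined DPY-27 protein in worms from the same collections by western blot and reports that it was significantly reduced. That blot is not analysed here. Muscle, neuron, intestine and hypodermis markers were present in every group. The 5 body wall muscle markers summed to 2057 FPKM in the control, 2311 FPKM in *dpy-27(RNAi)*, 3032 FPKM in *cec-4* and 2771 FPKM in *met-2 set-25*, with 2 of 5 higher by at least 1.5-fold in each mutant. The 5 neuron markers summed to 478, 561, 607 and 537 FPKM in the same order. By contrast, the summed levels of yolk, sperm and early embryo markers lay at or below 1.28 FPKM. The summed level of 5 germ line markers was between 54.7 and 61.7 FPKM in 3 groups and 225 FPKM in *met-2 set-25*. Against the control, 3 of the 4 germ line markers tested were at least 1.5-fold higher in this double mutant, beside 21.5% of all genes. In *dpy-27(RNAi)* 2 of 4 were also higher, *pgl-1* and *nos-1*, beside 14.2% of all genes. In *cec-4* 1 of 4 was higher, *nos-1*, beside 22% of all genes. *nos-1* stood at 0.943 FPKM in the control and averaged at least 1 FPKM only through the groups where it was higher. It is counted as higher in every comparison, so these counts are no support for a rise of the germ line markers as a set. The gene *glh-1* made up most of the 225 FPKM, at 168 FPKM against 25.5 FPKM in the control. *mes-3* stayed within 1.5-fold (29.7 and 24.5 FPKM). The summed level of 5 intestine markers ran from 2409 FPKM in the control to 1494 FPKM in *met-2 set-25*. Most of this sum came from *act-5* (1421 and 745 FPKM) and *ifb-2* (919 and 681 FPKM), while the intestinal regulators *elt-2* (35.5 and 35.96 FPKM) and *elt-7* (14.8 and 15.7 FPKM) differed little. The part of these differences in the results below was not tested.

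The 7 genes spanned a wide range of levels, and their order was the same in all 4 groups. Per length, *lin-14* was the highest and was followed by *lin-28*, *lin-41*, *daf-12*, *hbl-1*, *lin-46* and *lin-42*. Without a spread between libraries it cannot be said which neighbours in this order differ beyond their error, and in the control the closest pairs were *lin-14* with *lin-28* and *lin-46* with *lin-42*. The *lin-14* level was 1.17 times that of *lin-28* in the control, 1.30 times in *dpy-27(RNAi)*, 1.42 times in *cec-4* and 1.57 times in *met-2 set-25*. The *lin-46* level was 1.36 times that of *lin-42* in the control, 2.83 times in *dpy-27(RNAi)*, 15.1 times in *cec-4* and 4.35 times in *met-2 set-25*. Over the groups *lin-46* itself had a range of 1.64-fold and *lin-42* one of 8.76-fold.

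**Figure D1:**
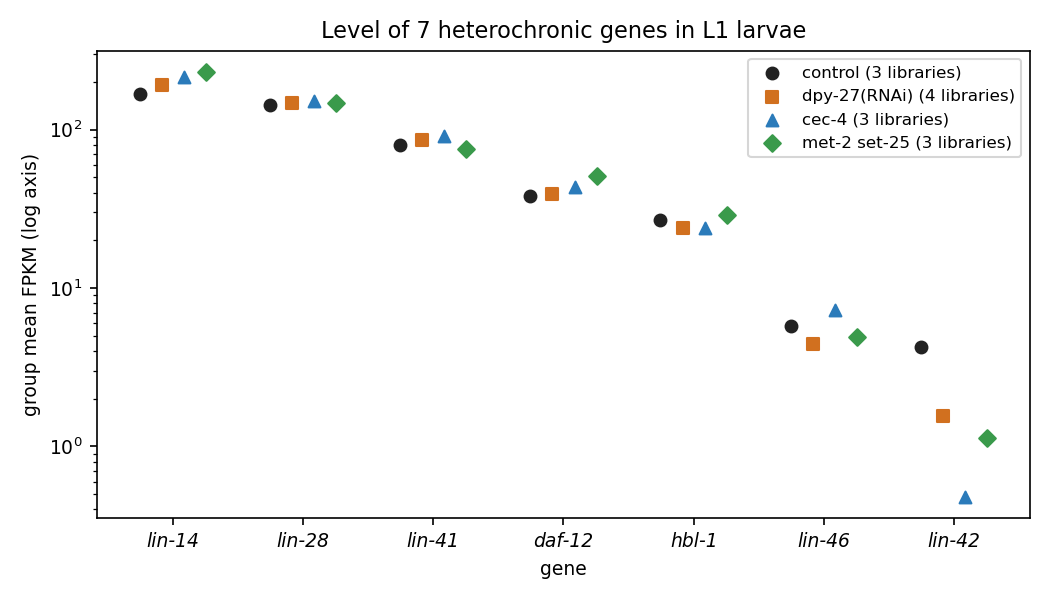
Group mean FPKM (log axis) of the 7 heterochronic genes, ordered by their control level, with 1 point per group: control (circles), *dpy-27(RNAi)* (squares), *cec-4* (triangles) and *met-2 set-25* (diamonds). No error bars are drawn because each point is the only value of its group. The points of each gene lie close together except for *lin-42*, which runs from 4.22 FPKM in the control to 0.482 FPKM in *cec-4*.

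The comparison with the control asked whether any of the timing genes was at another level when DPY-27 was targeted by RNAi or when *cec-4* or both methyltransferase genes were mutant. Of the 7 genes, 1 was lower by at least 1.5-fold and 0 were higher in each of the 3 comparisons, and the gene was *lin-42* each time. Among all genes tested, 8.45% were lower and 14.2% higher in *dpy-27(RNAi)*, 11.7% were lower and 22% higher in *cec-4*, and 16.3% were lower and 21.5% higher in *met-2 set-25*. A count of 1 in 7 is near these shares for lower genes, so it does not set the 7 genes apart as a group. Over all 4 groups, 2 of the 7 genes, *lin-42* and *lin-46*, had a range of at least 1.5-fold between the highest and the lowest mean, against 58.8% of all genes.

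*lin-42* encodes the worm homolog of the circadian protein PERIOD, and its mRNA is known to rise and fall once in each molting cycle. Its level was 4.22 FPKM in the control, 1.56 FPKM in *dpy-27(RNAi)*, 0.482 FPKM in *cec-4* and 1.13 FPKM in *met-2 set-25*. The control mean was thus the highest of the 4 and the *cec-4* mean the lowest. On the log2 scale, with 0.1 FPKM added, the *lin-42* ratio to the control was -1.38 in *dpy-27(RNAi)*, -2.89 in the *cec-4* mutant and -1.81 in *met-2 set-25*, which is 2.60-fold, 7.43-fold and 3.51-fold lower. Among all genes tested, 2.87%, 2.04% and 3.30% had a log2 ratio below that of *lin-42* in the 3 comparisons. Between the altered groups, *lin-42* was lower in *cec-4* than in *dpy-27(RNAi)* (log2 ratio -1.51) and higher in *met-2 set-25* than in *cec-4* (log2 ratio 1.08), while *met-2 set-25* was within 1.5-fold of *dpy-27(RNAi)* (log2 ratio -0.43).

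The means of low genes scatter more, and *lin-42* is a low gene. Among the 3201 genes that averaged between 1 and 3 FPKM, 15.2% were lower by at least 1.5-fold in *dpy-27(RNAi)*, 15.8% were lower in *cec-4* and 19.7% were lower in *met-2 set-25*. In this band 7.65%, 6.12% and 8.68% of genes had a log2 ratio below that of *lin-42*, and 27.2% had at least its range over the 4 groups. The position of *lin-42* among genes of its own level was thus less extreme than among all genes. It lay below the middle 80% of such genes in each comparison, whose lower bounds were -0.99, -1.03 and -1.43 on the log2 scale.

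The digits of the deposited means limit how the libraries of a group can have been spread. Multiplied by the number of libraries, the means come out as sums of values with at most 6 significant digits, so a sum with 6 decimals needs at least 1 library with a value under 1 FPKM, if each library gave 1 such value. For *lin-42* in the control the sum has 6 decimals. At least 1 of the 3 control libraries was therefore under 1 FPKM, and the other 2 averaged above 5.84 FPKM. Control libraries thus differed among themselves by more than 5.84-fold, more than the fold between the control mean and the *dpy-27(RNAi)* or *met-2 set-25* mean. At least 1 library was also under 1 FPKM in *dpy-27(RNAi)*, with the other 3 averaging above 1.75 FPKM, and in *met-2 set-25*, with the other 2 averaging above 1.20 FPKM. The *lin-42* values of the control libraries therefore overlapped those of both these groups. Whether they overlapped those of *cec-4* cannot be told from the digits. Of the 3548 genes with a control mean between 3 and 10 FPKM, 2.56% showed such a low library in the control. The digits of the other 6 genes carry no information of this kind.

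*lin-42* lies on chromosome II from 1233236 to 1252359 on the minus strand (WBcel235), with 7 annotated transcripts that share 1 FPKM value in the table, so its isoforms were not told apart. The 4 other genes annotated within its span are noncoding, and none overlaps its exons. Of the 10 nearest tested genes, 5 on each side over 174 kb, 1 was lower by at least 1.5-fold in *dpy-27(RNAi)*, 0 were lower in *cec-4* and 1 was lower in *met-2 set-25*. Their median log2 ratios were -0.064, 0.077 and -0.13. The neighbourhood as a whole did not share the lower mean of *lin-42*.

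**Figure D2:**
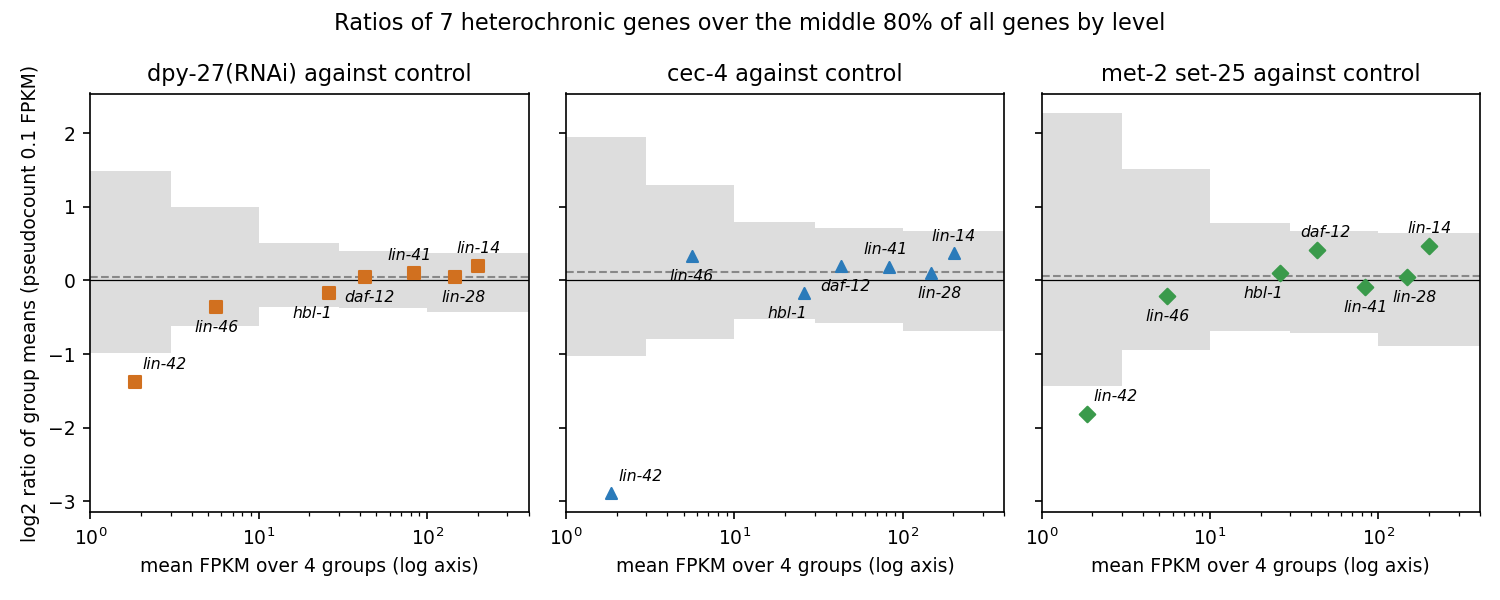
Log2 ratio of group means (pseudocount 0.1 FPKM) against the mean FPKM over the 4 groups (log axis) for the 7 genes in the 3 comparisons with the control. Grey steps hold the middle 80% of all genes in 5 bands of level and the dashed line is the median of all genes. *lin-42* is the only 1 of the 7 outside the grey steps, and the steps widen toward low levels.

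*lin-14* encodes a nuclear protein that specifies L1 fates and is the main target of the *lin-4* microRNA. Its level was 167 FPKM in the control, 191 FPKM in *dpy-27(RNAi)*, 215 FPKM in *cec-4* and 231 FPKM in *met-2 set-25*. The control mean was the lowest of the 4. On the log2 scale the ratios were 0.20, 0.37 and 0.47, and all 3 lay within the middle 80% of genes of its level. The range over the groups was 1.38-fold. *lin-14* was among the highest genes of each group, at the 94.8th percentile of level in the control and the 96.6th in *met-2 set-25*. It lies on chromosome X from 11465560 to 11485871 on the plus strand. Of 5 noncoding genes annotated within this span, 2 overlap its exons, over 207 bases, and 1 of the 5 is listed at up to 5958 FPKM. The libraries did not keep the strand, so reads of *lin-14* and of the 2 genes that overlap its exons cannot be told apart there. Whether the gene listed at up to 5958 FPKM is 1 of these 2 was not determined.

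*lin-28* encodes an RNA-binding protein that blocks the maturation of *let-7* and keeps early cell fates. It was the steadiest of the 7 genes, with 142.1 FPKM in the control, 147 FPKM in *dpy-27(RNAi)*, 152 FPKM in *cec-4* and 147 FPKM in *met-2 set-25*, a range of 1.07-fold. The log2 ratios against the control were 0.05, 0.10 and 0.05. Centred on the median ratio of all genes, the *cec-4* ratio changed sign to -0.020 and the *met-2 set-25* ratio to -0.0056, so no direction is given. The gene lies on chromosome I from 8407630 to 8410804 on the minus strand and shares 16 exonic bases with a neighbouring protein-coding gene.

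*lin-41* encodes a TRIM-NHL protein that binds mRNAs and holds back late fates until *let-7* represses it. Its level was 80.3 FPKM in the control, 86.2 FPKM in *dpy-27(RNAi)*, 91.3 FPKM in *cec-4* and 75.7 FPKM in *met-2 set-25*. The log2 ratios were 0.10, 0.19 and -0.09, and the last became 0.11 when each group was rescaled to the same sum. The gene lies on chromosome I from 9334800 to 9342496 on the minus strand, and no other annotated gene overlaps it.

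*hbl-1* encodes a zinc finger protein related to Hunchback that promotes L2 fates and is repressed by microRNAs of the *let-7* family. Its level was 27.04 FPKM in the control, 24.09 FPKM in *dpy-27(RNAi)*, 24.03 FPKM in *cec-4* and 28.89 FPKM in *met-2 set-25*. The log2 ratios against the control were -0.17, -0.17 and 0.09. These differences were small beside those of other genes of its level, whose middle 80% ran from -0.37 to 0.50 in *dpy-27(RNAi)*. *hbl-1* lies on chromosome X from 5822142 to 5827755 on the plus strand.

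*lin-46* encodes a protein related to the scaffold protein gephyrin that acts downstream of LIN-28 and opposes HBL-1. Its level was 5.73 FPKM in the control, 4.43 FPKM in *dpy-27(RNAi)*, 7.26 FPKM in *cec-4* and 4.93 FPKM in *met-2 set-25*. The log2 ratios against the control were -0.37, 0.34 and -0.21. The *cec-4* mean was the highest of the 4 and the *dpy-27(RNAi)* mean the lowest, a range of 1.64-fold. *lin-46* lies on chromosome V from 12968855 to 12970730 on the plus strand, with 1 annotated transcript.

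*daf-12* encodes the nuclear receptor for dafachronic acids, which joins timing to the choice between reproductive growth and dauer and acts on the transcription of *let-7* family microRNAs. Its level was 38.1 FPKM in the control, 39.4 FPKM in *dpy-27(RNAi)*, 43.7 FPKM in *cec-4* and 50.9 FPKM in *met-2 set-25*. The control mean was the lowest and the *met-2 set-25* mean the highest, 1.33-fold apart. The log2 ratios were 0.05, 0.20 and 0.41. In *met-2 set-25* the ratio became 0.61, past 1.5-fold, when each group was rescaled to the same sum, and the *lin-14* ratio became 0.66. Rescaling also moved the median of all genes in this comparison from 0.054 to 0.249, so the shift is not particular to these genes. *daf-12* lies on chromosome X from 10635908 to 10666875 on the plus strand, with 10 annotated transcripts.

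*lin-14*, *hbl-1* and *daf-12* are on the X chromosome, which the dosage compensation complex binds. The median log2 ratio of the 2763 X-linked genes tested was 0.17 in *dpy-27(RNAi)*, 0.26 in the *cec-4* mutant and 0.16 in *met-2 set-25*, beside 0.02, 0.083 and 0.030 for the 13501 autosomal genes. *lin-14* lay above the X median in all 3 comparisons, *hbl-1* below it in all 3, and *daf-12* above it in *met-2 set-25* only. The 3 X-linked timing genes thus had no common ratio.

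In the direct comparisons of the altered groups, *lin-42* and *lin-46* were the members that differed by at least 1.5-fold. In *cec-4* against *dpy-27(RNAi)*, 1 of 7 was higher (*lin-46*, log2 ratio 0.70) and 1 was lower (*lin-42*), against 13.6% and 10.4% of all genes. In *met-2 set-25* against *dpy-27(RNAi)*, 0 were higher and 0 lower, against 13.4% of all genes in each direction. In *met-2 set-25* against *cec-4*, 1 was higher (*lin-42*) and 0 were lower, against 11.5% and 15.5%. The 4 highest members, *lin-14*, *lin-28*, *lin-41* and *daf-12*, were within 1.5-fold in every pair of groups as deposited.

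Other genes of the pathway were described from 6 lists of 52 genes, of which 36 averaged at least 1 FPKM. Of these 36, 2 were higher and 3 lower in *dpy-27(RNAi)*, 4 higher and 6 lower in *cec-4*, and 5 higher and 5 lower in *met-2 set-25*. Among all genes the shares were 14.2% higher and 8.45% lower, 22% higher and 11.7% lower, and 21.5% higher and 16.3% lower in these comparisons, and nothing particular to the pathway is read from the counts. Their median log2 ratios were -0.047, -0.0094 and 0.13, beside 0.042, 0.12 and 0.054 for all genes. The 9 listed heterochronic microRNAs, *lin-4* and *let-7* among them, stood at 0 in every group. So did 226 of the 230 genes annotated as microRNAs, which poly(A)-selected libraries do not measure, so the table says nothing of their level.

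**Figure D3:**
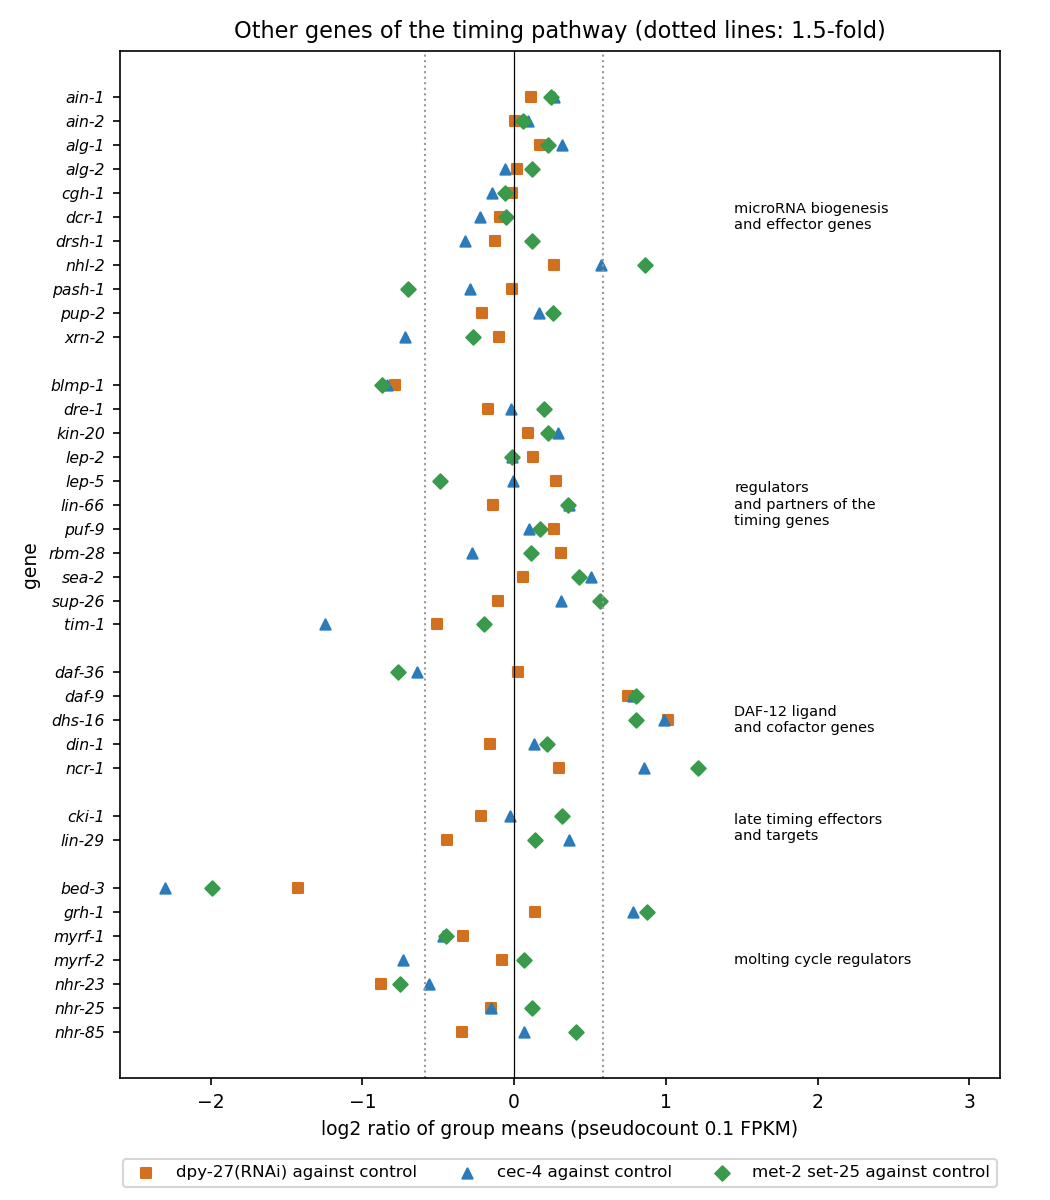
Log2 ratio of group means (pseudocount 0.1 FPKM) for the 36 other pathway genes averaging at least 1 FPKM, in 5 lists, for *dpy-27(RNAi)* (squares), *cec-4* (triangles) and *met-2 set-25* (diamonds) against the control. Dotted lines mark 1.5-fold. *bed-3* has the lowest ratios (-1.42, -2.30 and -1.99) and most genes lie between the dotted lines.

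The molting regulators, which drive the cycle that *lin-42* mRNA follows, held the largest difference of the lists, that of *bed-3*. Of 7 tested, 0 were higher and 2 lower in *dpy-27(RNAi)*, and 1 was higher and 2 lower in each of the other 2 comparisons, against 8.45%, 11.7% and 16.3% of all genes lower and 14.2%, 22% and 21.5% higher. *bed-3*, which encodes a zinc finger protein needed for molting, stood at 12.5 FPKM in the control, 4.59 FPKM in *dpy-27(RNAi)*, 2.45 FPKM in *cec-4* and 3.07 FPKM in *met-2 set-25*, log2 ratios of -1.42, -2.30 and -1.99. *nhr-23*, which encodes a nuclear receptor of the molting cycle, stood at 17.4, 9.45, 11.8 and 10.3 FPKM in the same order, log2 ratios of -0.88, -0.56 and -0.75. The control mean was the highest of the 4 for both genes. Both were named because they were at least 1.5-fold lower than the control, so this is partly given by the choice. *myrf-1* was also highest in the control (44.5 FPKM). *nhr-25* (56.9 FPKM), *nhr-85* (29.0 FPKM), *grh-1* and *myrf-2* were highest in *met-2 set-25*. *grh-1*, a Grainyhead transcription factor gene, had log2 ratios of 0.14, 0.78 and 0.87. The highest gene of the list, *myrf-2*, was at 73.8, 69.7, 44.3 and 77.1 FPKM, with a log2 ratio of -0.73 in *cec-4*. The list medians of -0.34, -0.47 and 0.063 show no common direction over the 3 comparisons. The digits of the control means of *bed-3* and *nhr-23* do not require a control library under 10 FPKM and carry no information on their spread.

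Among 11 regulators and partners of the timing genes, 0 were higher in any comparison with the control, against 14.2%, 22% and 21.5% of all genes. In the 3 comparisons 1, 2 and 1 were lower, against 8.45%, 11.7% and 16.3% of all genes. Nothing particular to the list is read from these counts. *blmp-1*, which encodes a zinc finger transcription factor of the larval epidermis, was lower in each, at 30.9 FPKM in the control, 17.9 FPKM in *dpy-27(RNAi)*, 17.3 FPKM in *cec-4* and 16.9 FPKM in *met-2 set-25*. Its log2 ratios were -0.78, -0.84 and -0.87, so the 3 altered groups lay close together. The 2 genes named for circadian partners of PERIOD differed from each other. *tim-1*, related to Timeless, was at 12.1, 8.44, 5.03 and 10.5 FPKM (log2 ratios -0.51, -1.24 and -0.20). *kin-20*, related to the kinase Doubletime, was at 73.1, 77.7, 89.4 and 85.3 FPKM (log2 ratios 0.09, 0.29 and 0.22). The highest gene of the list was *sup-26*, which encodes an RNA-binding protein, at 613, 570, 758 and 907 FPKM.

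Of the 7 listed genes for the DAF-12 ligand and cofactors, 5 averaged at least 1 FPKM. In *dpy-27(RNAi)* 2 were higher and 0 lower, and in each of the mutants 3 were higher and 1 was lower. Among all genes the shares in the 3 comparisons were 14.2%, 22% and 21.5% higher and 8.45%, 11.7% and 16.3% lower. With 5 genes this is a description only. *daf-9*, which encodes the cytochrome P450 of the last step of dafachronic acid synthesis, stood at 0.937 FPKM in the control, 1.64 FPKM in *dpy-27(RNAi)*, 1.68 FPKM in *cec-4* and 1.71 FPKM in *met-2 set-25*. Its log2 ratios were 0.75, 0.78 and 0.80. *dhs-16*, which encodes a dehydrogenase of the same synthesis, stood at 0.881, 1.88, 1.85 and 1.61 FPKM (log2 ratios 1.02, 0.99 and 0.80). Both genes are near the low end of the range analysed, and the same low control mean enters all 3 ratios of each. Both were under 1 FPKM in the control and averaged at least 1 FPKM only through the groups where they were higher. Both are among the genes counted as higher in every comparison, so those counts are no support for a rise of the list. *ncr-1*, a Niemann-Pick homolog that acts in cholesterol transport, was at 16.5, 20.3, 29.98 and 38.4 FPKM (log2 ratios 0.30, 0.85 and 1.21). *daf-36*, whose oxygenase acts at the first step, went the other way, at 14.3, 14.5, 9.14 and 8.38 FPKM (log2 ratios 0.02, -0.64 and -0.76). The enzymes of the synthesis thus did not share 1 direction. The corepressor gene *din-1* was the highest, at 72.6, 65.1, 79.4 and 84.5 FPKM.

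Among 11 genes that make microRNAs or act with them, 0 were higher or lower in *dpy-27(RNAi)*, 1 was lower in *cec-4* (*xrn-2*, an exonuclease gene, log2 ratio -0.72), and 1 was higher and 1 lower in *met-2 set-25*. The higher gene was *nhl-2*, whose TRIM-NHL protein assists microRNA silencing, at 44.3, 53.1, 66.0 and 80.6 FPKM (log2 ratio 0.86 in *met-2 set-25*). The lower gene was *pash-1*, whose protein works with the nuclease Drosha (log2 ratio -0.70). The shares of all genes were 14.2% higher and 8.45% lower in *dpy-27(RNAi)*. They were 22% higher and 11.7% lower in *cec-4*, and 21.5% higher and 16.3% lower in *met-2 set-25*. Nothing particular to the list is read from the counts of its 11 genes. The highest gene of the list was *ain-1*, a partner of the microRNA Argonautes, at 89.7, 97.0, 107 and 106 FPKM.

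Genes that act at the end of the pathway were mostly below the level analysed. Of 7 late effectors and targets, 2 averaged at least 1 FPKM and neither passed 1.5-fold. *lin-29*, the zinc finger gene that ends seam cell division in the adult molt, stood at 5.15, 3.76, 6.65 and 5.68 FPKM. *cki-1*, a cell cycle inhibitor gene, stood at 62.8, 53.99, 61.6 and 78.1 FPKM. *col-19*, a collagen gene of the adult cuticle, was at or below 0.0989 FPKM in every group. Seam cell markers, 6 of 7 of which averaged at least 1 FPKM, summed to 113 FPKM in the control, 87.9 FPKM in *dpy-27(RNAi)*, 107 FPKM in *cec-4* and 101 FPKM in *met-2 set-25*. Hypodermis markers summed to 201, 172, 212 and 224 FPKM in the same order. The seam sum was highest in the control, and among the altered groups it was highest in *cec-4*, where the *lin-42* mean was lowest. *bro-1*, a seam cell marker, stood at 6.76 FPKM in the control, 3.06 FPKM in *dpy-27(RNAi)*, 6.80 FPKM in *cec-4* and 3.48 FPKM in *met-2 set-25*, and was the 1 tested seam or hypodermis marker past 1.5-fold. The part of seam or hypodermal content in the *lin-42* means was not tested.

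The genes whose pattern over the 4 groups was most like that of each timing gene were found by the distance between their log2 values, each centred on its own mean. With 4 points, likeness is weak evidence and is given only as a description. *lin-42* had no gene within a distance of 0.1 among the other 16437, and the nearest were *T19C4.1* (0.115), *Y39A1A.9* (0.25) and *fbxa-172* (0.40). *T19C4.1* stood at 56.1 FPKM in the control, 21.5 FPKM in *dpy-27(RNAi)*, 7.97 FPKM in *cec-4* and 15.2 FPKM in *met-2 set-25*. *lin-46* had 10 genes within this distance, led by *swm-1*, *lgc-35* and *nhx-3*. The other 5 genes had between 65 and 289. The nearest were *ZC266.1*, *frpr-19* and *unc-29* for *lin-14*, *nhr-65*, *gpi-1* and *cdc-42* for *lin-28*, and *Y12A6A.1*, *C36E6.2* and *F32B5.2* for *lin-41*. They were *nhr-25*, *T26A8.2* and *acy-3* for *hbl-1* and *nmat-2*, *F41C3.8* and *cls-3* for *daf-12*.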

How the data were processed

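The authors trimmed the reads with Trim Galore, aligned them with TopHat2 2.0.13, computed FPKM with Cufflinks 2.2.1 and deposited the mean FPKM of each group, 1 value per gene and group. Libraries were poly(A)-selected and not stranded. The authors' own comparisons (6 columns of log2 fold changes and adjusted p-values from HTSeq 0.6.0 counts by DESeq2 1.6.3 in R 3.2.3) were not used. The number of per-library columns used was 0, so depth, replicate error and tests are lacking. The study calls the libraries of a group biological replicates.

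Here, log2 ratios of group means were computed with a pseudocount of 0.1 FPKM for the 16438 genes averaging at least 1 FPKM; this understates the change of low genes. The computation of ratios was tested on simulated data with known folds, which says nothing of the replicate error of the calls. Positions, exon lengths and overlaps came from Ensembl release 115 (WBcel235), in which 45871 of 46170 gene IDs were found and 299 were not. Named genes were the 7 members, in each pathway list the genes past 1.5-fold in any comparison with the control and the highest, the 3 nearest profiles of each member, and the 4 targeted genes. *col-19*, *lin-29*, *kin-20*, *myrf-1*, *nhr-25*, *nhr-85* and the germ line and muscle markers named were added after their values were seen. The members and lists were chosen with earlier results of these data known, and the look at digits was added after seeing the data. Python 3.11.15, numpy 2.4.6, pandas 2.3.3 and matplotlib 3.10.9 were used.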

Additional observations from a re-analysis of the deposited data

How the results depend on the processing

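The alternatives were a pseudocount of 1 FPKM or none, ratios centred on the median of all genes, each group rescaled to the same sum, a lower fold (0.32 on the log2 scale) and a fold of 2, no filter on low values, and an average of at least 5 FPKM. The direction and call of *lin-42* held under each of these that kept the gene, with log2 ratios of -1.43 to -1.03 in *dpy-27(RNAi)*, -3.13 to -1.82 in the *cec-4* mutant and -1.90 to -1.29 in *met-2 set-25*. At a minimum of 5 FPKM *lin-42* was left out, so the number of timing genes past the fold became 0 in all 3 comparisons. At the lower fold it was 2 in *dpy-27(RNAi)* and 3 in each of the mutants, and rescaling also gave 3 in *met-2 set-25*. Rescaling moved the median of all genes by 0.020, 0.12 and 0.20 on the log2 scale in the 3 comparisons. The number with a range past the fold was 4 after rescaling, 4 at the lower fold, 1 at a fold of 2 and 1 at a minimum of 5 FPKM. The share of all genes was not computed under these alternatives, and a lower fold or rescaling can raise it too. These counts are therefore not read as results about the 7 genes. Of the 21 ratios, 14 moved by at least 0.1 under rescaling, 7 under centring, 3 with a pseudocount of 1 FPKM and 1 with none, and no called ratio reversed. No paired analysis was possible because the table holds only group means, and for the same reason no library could be left out.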
